A study of Mus musculus with 2 samples.

Results

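The genes described here are the mouse counterparts of genes lost in the human 22q11.2 deletion, which causes DiGeorge syndrome. They were chosen by name, from a list of 33 genes. A gene was kept when a transcript cluster, the set of probes along a transcript that the array reports as 1 value, was annotated to that gene symbol alone. Of the 33 genes 32 were measured in this way, among 19938 genes on the array with a symbol of their own. The missing gene is Gp1bb, a subunit of the platelet receptor for von Willebrand factor, whose only cluster carries 2 gene symbols. All 33 lie on mouse chromosome 16 in the RefSeq gene table used here, whereas Adam19, the gene removed in this study, lies on another chromosome. Where results are given for the interval or its genes, the listed genes are meant. Other genes that lie between them are described at the end.

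RNA came from sorted neural crest cells of E14.5 mouse hearts, on a C57BL/6 strain background. Embryos of both groups carried Wnt1-Cre and 1 R26tdTomato reporter allele, so that the descendants of cells in which the Wnt1 driver had been active fluoresced red and could be sorted from digested hearts. The groups were Adam19+/+ and Adam19-/-, and Adam19 encodes a membrane-anchored metalloprotease. Each was hybridised once to an Affymetrix Mouse Gene 1.0 ST array (n = 1 per genotype), so no replicate check, error or p-value can be given and every difference is that between 2 samples. The labels state neither how many embryos were pooled nor their sex. None of these mice carried a deletion of the 22q11-syntenic interval, so the data show the level of its genes in neural crest cells with and without Adam19.

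The human deletion arises between repeated blocks of sequence named A to D. It can remove, for example, segment A-B alone or all of A-B, B-C and C-D. Carriers often have defects of the outflow tract and aortic arch arteries, structures to which cardiac neural crest cells contribute smooth muscle and septal mesenchyme. Tbx1, a T-box transcription factor, is regarded as the main gene behind these defects. It is classically described in pharyngeal endoderm, ectoderm and mesoderm, and it acts on neural crest cells largely through signals from those tissues. Crkl, an adaptor protein of receptor kinase signalling, is a further candidate and acts within several tissues, neural crest among them.

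The arrays were similar. Median log2 signals over all clusters were 7.49 in Adam19+/+ and 7.52 in Adam19-/- cells. Adam19 itself was at 11.62 and 9.77, which is 3.60-fold lower in Adam19-/- cells and has the direction of the labels. A gene was counted as expressed when both arrays exceeded 8.01, the median of all genes' mean signals. This floor is a middle level of the array and not a limit of detection. As a reference for genes that are rarely active outside sensory tissue, 1027 olfactory receptor genes had a median signal of 4.88 and a 95th percentile of 6.15, and 3 of them exceeded the floor. Over the 9830 expressed genes the difference, log2 signal of Adam19-/- minus Adam19+/+, had a median of 0.038, and its central 95% ran from -0.19 to 0.29. Of these genes 65.0% were above 0. Where a gene had 2 expressed clusters, their differences lay a median of 0.053 apart, with a 95th percentile of 0.23, over 565 genes. Signals of different clusters depend on their probes, so they are not compared as amounts of RNA.

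The labelled cell type was checked against marker genes. All 8 smooth muscle markers, all 8 mesenchyme and valve markers, all 8 measured autonomic neuron markers and 5 of 6 measured glial markers were expressed, with Acta2, smooth muscle actin, at 13.74 and 13.62 and the glial Sox10 at 10.45 and 10.50. Markers of cells outside the neural crest also gave signal above the floor, among them Tnnt2 of cardiomyocytes at 11.12 and 11.02 and the embryonic globin gene Hbb-y at 10.71 and 10.997. All 12 leukocyte markers, which lay between 5.99 and 9.21, were higher in Adam19-/- cells, with a list median of 7.38 in Adam19+/+ and 7.76 in Adam19-/- cells, and only Laptm5 and Cd68 were expressed on both arrays. Of 12 cardiomyocyte markers, which lay between 7.58 and 11.79, 10 were higher, with Myl7 at 8.17 and 8.95. Of 6 measured erythroid markers 5 were higher, and both expressed ones passed 1.2-fold, Hba-x with a difference of 0.36 and Hbb-y with one of 0.29. Of the 8 measured autonomic neuron markers 5 were higher and 3 lower, with Th at 0.46, Dbh at 0.43 and Gata3 at 0.35. Of the Y chromosome, Kdm5d, Uty and Eif2s3y were between 2.25-fold and 3.08-fold lower in Adam19-/- cells. On the deposited scale all 8 smooth muscle markers were lower, with a median difference of -0.12, and 7 of 8 mesenchyme and valve markers higher, with a median of 0.29. Of the 6 measured glial markers 1, Sox10, was higher and 5 were lower, and the 5 expressed ones had a median difference of -0.11. In such bulk samples fewer cells of a type and less RNA per cell cannot be told apart. The part of these gaps in the differences of the 22q11-syntenic genes was not tested.

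Most of the listed genes were expressed in both samples. Of the 32 measured genes, 23 exceeded the floor on both arrays and 9 were under it on both, so none passed on 1 array alone. Among all genes on the array 49.3% were expressed. The expressed gene closest to the floor was Tbx1 at 8.60 and 8.78, and the closest gene under it was Prodh at 7.84 and 7.74. The 9 genes under the floor were Prodh, Txnrd2, Rtn4r, Slc7a4, Cldn5, Gsc2, P2rx6, Tssk2 and Serpind1. Of these, 7 exceeded the 95th percentile of olfactory receptor genes on both arrays, and Tssk2 and Serpind1 did not. That level was exceeded by 30 of the 32 measured genes and by 71.6% of all genes on the array. By human segment, 15 of 21 genes of A-B, 3 of 3 of B-C and 5 of 8 of C-D were expressed.

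**Figure D1:**
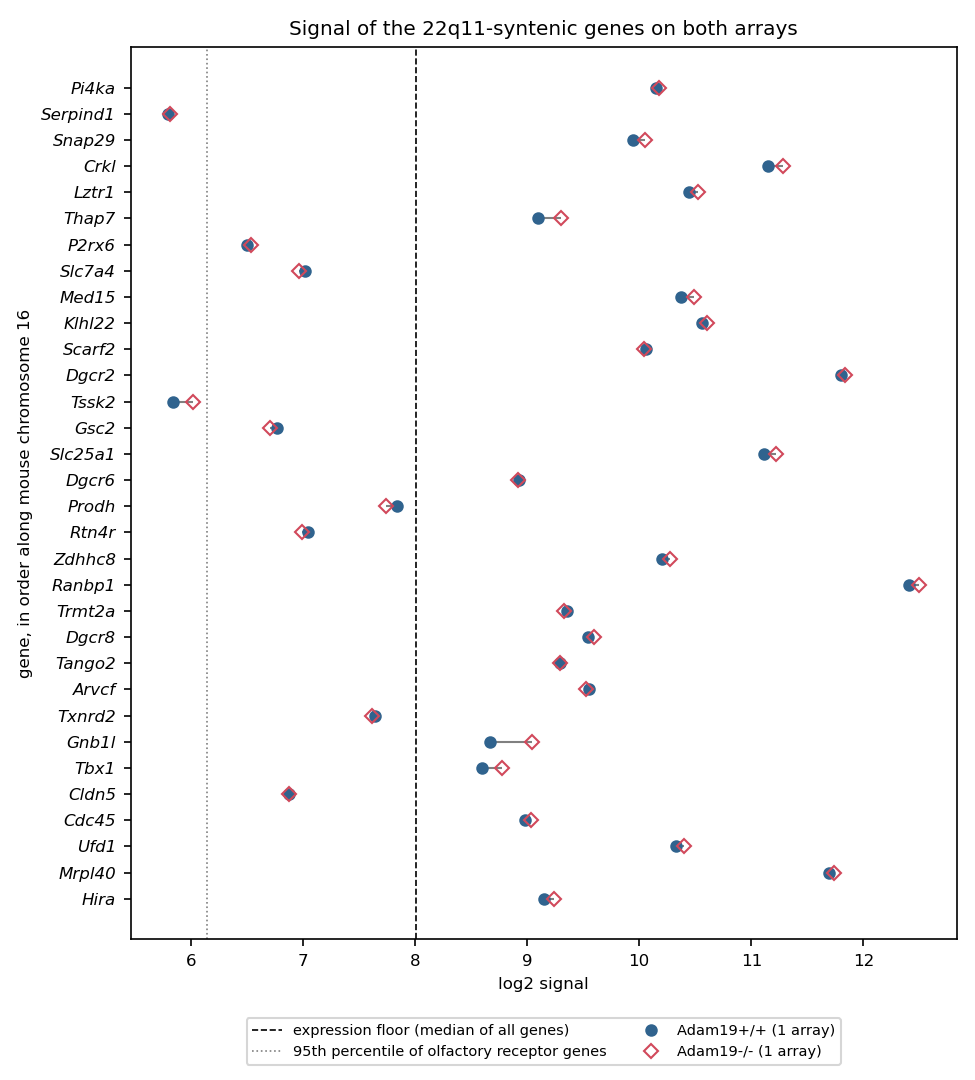
Log2 signal of the 32 measured genes in Adam19+/+ cells (filled circles) and Adam19-/- cells (open diamonds), 1 array each, in their order along mouse chromosome 16; lines mark the expression floor of 8.01 and the 95th percentile of olfactory receptor genes, 6.15. In 23 genes both symbols lie right of the floor, and the symbols of a gene lie closest to each other in Cldn5, which had equal values, and farthest apart in Gnb1l.

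Promoter sequences were set beside these levels, since genes under and above the floor sit side by side on the chromosome. The windows come from the RefSeq promoter table of GRCm38.p6 and run from 250 bases before to 50 bases after the outermost start of each gene, 300 bases in all. Windows were found for 31 of the 32 measured genes. The sequences begin with Ranbp1, whose window is also most of the window of Trmt2a, and Hira, which shares much of its window with Mrpl40. They continue with Tbx1 and with Gnb1l, the listed gene with the largest difference. Rtn4r, Cldn5 and Serpind1, which were under the floor, come last. Each sequence is written 5′ to 3′ on the strand of the gene, and capitals mark the dinucleotide CG, which reads the same on both strands.
Ranbp1 (GRCm38.p6 chr16:18248645-18248944, minus strand): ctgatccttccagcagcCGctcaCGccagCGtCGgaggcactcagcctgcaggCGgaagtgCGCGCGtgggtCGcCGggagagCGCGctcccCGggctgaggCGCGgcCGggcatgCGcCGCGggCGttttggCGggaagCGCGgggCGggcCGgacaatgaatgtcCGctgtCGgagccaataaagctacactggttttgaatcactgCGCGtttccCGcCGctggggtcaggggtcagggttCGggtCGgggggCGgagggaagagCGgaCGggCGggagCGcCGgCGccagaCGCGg
Hira (GRCm38.p6 chr16:18876500-18876799, plus strand): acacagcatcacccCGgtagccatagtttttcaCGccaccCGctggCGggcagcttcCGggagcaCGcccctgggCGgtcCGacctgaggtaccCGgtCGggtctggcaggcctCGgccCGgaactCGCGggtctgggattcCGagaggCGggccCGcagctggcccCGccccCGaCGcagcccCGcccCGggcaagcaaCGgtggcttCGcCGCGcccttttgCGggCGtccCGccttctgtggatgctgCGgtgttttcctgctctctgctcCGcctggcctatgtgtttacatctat
Tbx1 (GRCm38.p6 chr16:18590622-18590921, minus strand): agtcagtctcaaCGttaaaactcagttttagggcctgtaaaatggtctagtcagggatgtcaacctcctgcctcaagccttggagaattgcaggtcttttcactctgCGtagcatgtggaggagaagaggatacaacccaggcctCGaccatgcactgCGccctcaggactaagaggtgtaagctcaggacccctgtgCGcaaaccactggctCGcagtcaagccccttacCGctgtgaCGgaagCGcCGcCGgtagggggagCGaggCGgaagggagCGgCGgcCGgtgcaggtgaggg
Gnb1l (GRCm38.p6 chr16:18498463-18498762, plus strand): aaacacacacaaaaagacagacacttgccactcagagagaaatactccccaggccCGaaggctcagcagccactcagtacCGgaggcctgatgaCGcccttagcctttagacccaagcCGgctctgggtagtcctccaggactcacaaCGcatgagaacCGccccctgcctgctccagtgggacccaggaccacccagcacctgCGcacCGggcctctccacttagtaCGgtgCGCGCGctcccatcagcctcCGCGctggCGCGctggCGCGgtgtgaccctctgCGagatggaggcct
Rtn4r (GRCm38.p6 chr16:18127392-18127691, plus strand): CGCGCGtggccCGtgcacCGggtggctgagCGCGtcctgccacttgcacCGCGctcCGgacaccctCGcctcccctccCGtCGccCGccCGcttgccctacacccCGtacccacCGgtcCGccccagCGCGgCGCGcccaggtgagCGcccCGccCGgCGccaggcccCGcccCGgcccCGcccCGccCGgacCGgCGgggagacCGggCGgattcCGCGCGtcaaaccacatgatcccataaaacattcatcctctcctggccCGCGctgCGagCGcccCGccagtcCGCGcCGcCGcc
Cldn5 (GRCm38.p6 chr16:18776597-18776896, plus strand): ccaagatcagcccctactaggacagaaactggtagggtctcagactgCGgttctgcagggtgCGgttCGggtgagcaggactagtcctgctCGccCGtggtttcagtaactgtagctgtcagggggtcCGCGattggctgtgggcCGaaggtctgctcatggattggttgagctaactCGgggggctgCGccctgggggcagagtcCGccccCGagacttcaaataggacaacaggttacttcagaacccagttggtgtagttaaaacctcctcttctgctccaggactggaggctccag
Serpind1 (GRCm38.p6 chr16:17331121-17331420, plus strand): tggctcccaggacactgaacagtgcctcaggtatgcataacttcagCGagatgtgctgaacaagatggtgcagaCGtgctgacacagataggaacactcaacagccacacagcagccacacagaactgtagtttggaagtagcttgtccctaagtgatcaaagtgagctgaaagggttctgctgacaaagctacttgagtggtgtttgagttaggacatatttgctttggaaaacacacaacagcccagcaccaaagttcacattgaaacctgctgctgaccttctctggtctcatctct

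Windows rich in CG are typical of genes that are active in many tissues, and the interval held many of them. The Ranbp1 window had 42 CG, Hira 31, Gnb1l 19 and Tbx1 16, whereas Serpind1 had 2. The median was 21 CG over the 31 genes and 15 over the windows of 15614 genes on the array. Of the 23 genes of the interval with 15 or more CG, 19 were expressed, which is 82.6%, against 76.0% of the 8020 genes on the array with such a window. Of 6 genes with 5 to 14 CG, 4 were expressed, against 40.6% of 3751 genes. Both genes with under 5 CG, Serpind1 and P2rx6, were under the floor, as were most of the 3843 genes on the array in this class, of which 9.26% were expressed.

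The CG count did not separate the expressed genes from the others. Rtn4r, with 47, had the richest window of the 31 and lay under the floor at 7.04 and 6.996. Gsc2, with 24, and Txnrd2, with 25, were also under it, while Dgcr6 was expressed with 6. Across the 31 genes the CG count and the mean signal had a Spearman correlation of 0.39, and across the 15614 genes one of 0.62. These are descriptions over genes of the same 2 arrays, and the base composition of the array's probes was not analysed here. The motif TATAAA, searched on both strands, was found in 5 of the 31 windows, those of Pi4ka, P2rx6, Gsc2, Cdc45 and Ufd1, and in 12.1% of all windows. In Cdc45 and Ufd1 it is the same site, in the stretch that their windows share.

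**Figure D2:**
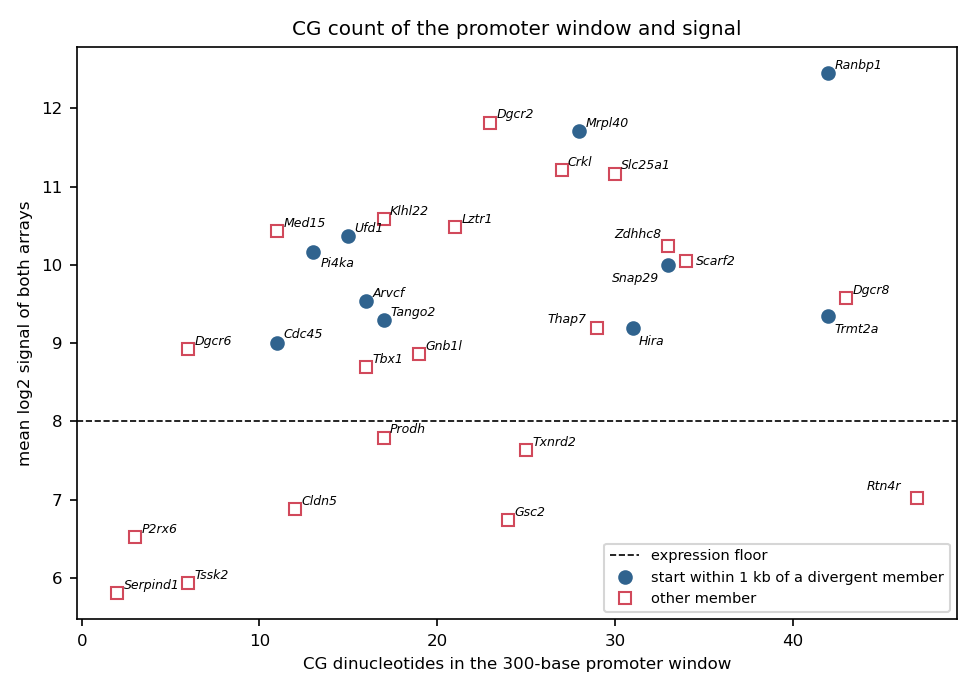
Mean log2 signal of both arrays against the number of CG dinucleotides in the 300-base promoter window, for the 31 genes with a window. Filled circles are genes whose start lies within 1 kb of the start of another listed gene on the opposite strand. Open squares are the others, and the dashed line is the floor of 8.01. All filled circles lie above the floor, and Rtn4r at the far right lies below it.

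Of the 32 measured genes, 10 stand in head-to-head pairs with each other, in which a gene on each strand starts within 1000 bases of the other. The pairs are Pi4ka with Snap29, Ranbp1 with Trmt2a, Tango2 with Arvcf, Cdc45 with Ufd1, and Mrpl40 with Hira, and their nearest starts lie between 84 and 322 bases apart. All 10 were expressed, against 13 of the 22 other measured genes. Partners outside the list were not looked for, so some of these 22 may also stand in such pairs. Among all genes on the array, where a partner could be any gene with a window, 70.7% of 1718 genes in such pairs were expressed. Of 13896 others with a window 48.6% were. The definitions differ, so these shares are not a direct background for the 10 and the 22. The windows of a pair overlap as reverse complements, by 288 bases in Ranbp1 and Trmt2a and by 212 in Mrpl40 and Hira. Pi4ka and Snap29 are the exception. Their nearest starts, 135 bases apart, are not both outermost, and the windows used here, which begin from the outermost starts, share no base. The CG count and the TATAAA motif given for Pi4ka belong to its outermost start.

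Both genes of a pair had nearly the same signal on both arrays. Ranbp1 had signals of 12.40 (Adam19+/+) and 12.50 (Adam19-/-), which differ by 0.096, and Trmt2a at 9.36 and 9.33, a difference of -0.030. Mrpl40 was at 11.69 and 11.74, a difference of 0.045 that was below 0 after centring on the median, while Hira differed by 0.087. Neither pair therefore held a gene outside the central range of all genes. In Cdc45 and Ufd1 the differences were 0.051 and 0.067, in Pi4ka and Snap29 they were 0.026 and 0.12, and in Tango2 and Arvcf 0.0044 and -0.023. Those of Cdc45, Pi4ka and Tango2 changed sign under another scaling.

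The comparison of genotypes gave small differences throughout the interval. Of the 23 expressed genes, 19 had a higher signal in Adam19-/- cells and 4 a lower one, with a median difference of 0.067. Read beside the 65.0% of all expressed genes that were higher, and their median of 0.038, the median of the listed genes lay 0.030 above the array as a whole. The split depends on the scaling, which the whole array shares. It was 17 higher and 6 lower after quantile normalisation, where 55.3% of all genes were higher, 16 and 7 after centring on a trend with signal, where 49.7% were, and 12 and 11 after centring on the median of expressed genes, where 43.3% were. Across all 8 alternative settings 16 of the 23 genes kept their sign, 12 of them higher and 4 lower. The floors leave every difference unchanged, and adding 32 to the linear signal cannot reverse one. Signs changed only under the scalings given above, which lowered most differences, so they hardly tried the sign of the lower genes.

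Gnb1l was the sole listed gene past 1.2-fold. At that threshold 3.57% of all expressed genes were higher and 0.997% lower, so 1 gene of 23 is near the background. None of the 23 reached 1.5-fold, which 0.0916% of all expressed genes exceeded upward and 0.0509% downward. The other 22 lay within the central 95% of all genes, and none apart from Gnb1l exceeded 0.23, the 95th percentile of the gap between clusters of 1 gene. The 298 other expressed genes of chromosome 16 had a median difference of 0.036, with 191 higher and 103 lower.

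**Figure D3:**
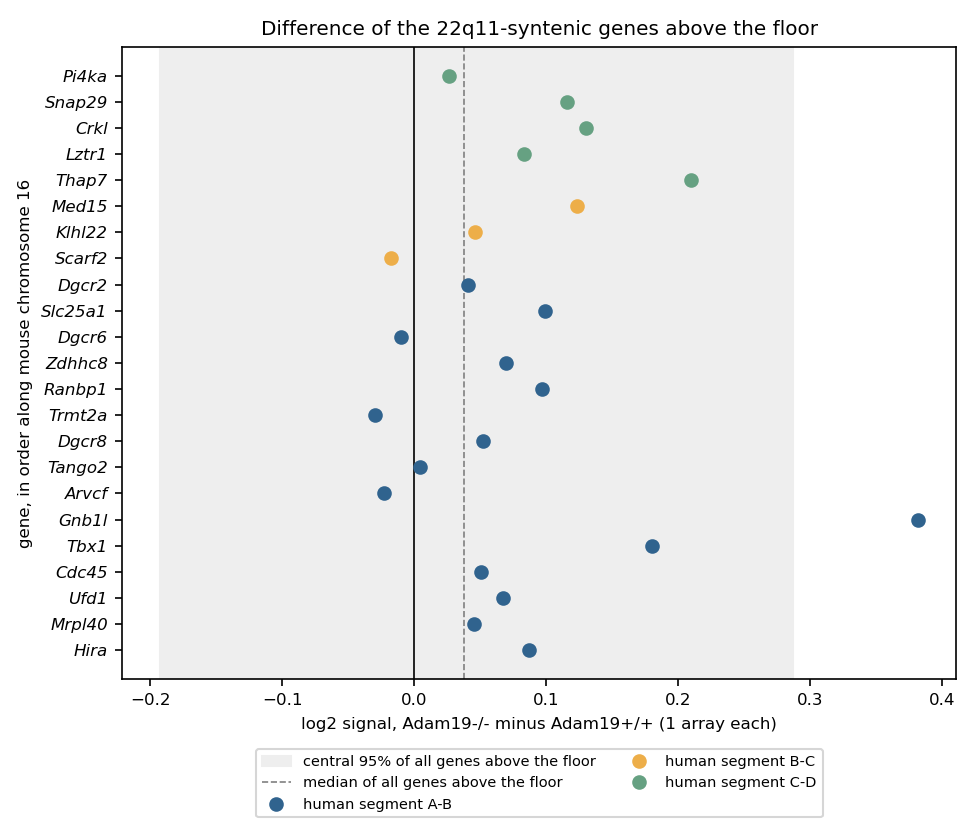
Difference in log2 signal, Adam19-/- minus Adam19+/+, for the 23 expressed genes in their order along mouse chromosome 16, coloured by the human deletion segment; the grey band is the central 95% of all expressed genes, from -0.19 to 0.29, and the dashed line their median, 0.038. Gnb1l at 0.38 is the only point outside the band, and the points range from -0.030 upward.

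Gnb1l encodes a WD40-repeat protein that resembles G protein beta subunits. Its signal was 8.67 in Adam19+/+ and 9.05 in Adam19-/- cells, higher by 0.38, which is 1.30-fold and ranks 80th among the increases of the 9830 expressed genes. It is the only gene of the interval with 2 clusters. The other cluster was at 7.47 and 7.82, under the floor on both arrays, with a difference of 0.35, so the clusters lay closer together than the median gap of 0.053. The brighter one is annotated through a single cDNA accession, the dimmer one through 10 accessions, 6 of them curated RefSeq transcripts. Over the alternatives the difference of Gnb1l ran from 0.33 to 0.38.

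Among the transcription and chromatin genes, all 4 expressed ones were higher in Adam19-/- cells, with a median difference of 0.15, and kept that direction under every alternative run. Such counts over few genes, here and in the groups and segments below, are to be read beside the 65.0% of all expressed genes that were higher. Tbx1, which follows Gnb1l in the order of these genes along the chromosome, was at 8.60 and 8.78, higher by 0.18, which is 1.13-fold. It ranked 1031st among the increases, and over the alternatives it ran from 0.12 to 0.18. Thap7, a zinc finger protein of the THAP family, was at 9.09 and 9.30, higher by 0.21, which is 1.16-fold and ranks 697th. Med15, a subunit of the Mediator complex that links activators to RNA polymerase II, was at 10.37 and 10.49. Hira, a chaperone that deposits the histone variant H3.3, was at 9.15 and 9.24. All 4 lay within the central range of the array. Gsc2, a homeobox gene related to goosecoid, was under the floor at 6.77 and 6.71.

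The 2 genes of RNA processing differed by less than the median gap between clusters. Dgcr8, the RNA-binding partner of Drosha in cutting primary microRNA transcripts, was at 9.55 and 9.60, a difference of 0.052 that changed sign after centring on the median. Trmt2a, a tRNA methyltransferase, is given above with its neighbour Ranbp1. Of 10 expressed genes of the microRNA pathway, 6 were higher and 4 lower around a median of 0.034. Those with the largest differences were the RNA helicase Ddx17 at -0.13, Dicer1 at 0.11, the exporter Xpo5 at 0.11 and Ddx5 at -0.082.

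All 5 expressed genes of signalling were higher on the deposited scale, Gnb1l, Crkl and Lztr1 under every alternative, Klhl22 not after centring on the median, and Pi4ka not after that, after centring on the trend or after quantile normalisation. Crkl was at 11.15 and 11.28, higher by 0.13, which is 1.09-fold, and ranged from 0.075 to 0.13 over the alternatives. Lztr1, a substrate adaptor that directs ubiquitination of RAS-family proteins, was at 10.44 and 10.53. Klhl22, a substrate adaptor of Cul3 ubiquitin ligases, was at 10.56 and 10.61, and Pi4ka, the kinase that makes phosphatidylinositol 4-phosphate at the plasma membrane, was at 10.15 and 10.18. The differences of Klhl22 and Pi4ka were 0.046 and 0.026. Tssk2, a kinase of the testis, was at 5.84 and 6.02, below the 95th percentile of olfactory receptor genes on both arrays.

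Genes of cell surface and adhesion were the group with most members under the floor, 4 of 7. Dgcr2, a membrane protein with a lectin domain, was at 11.80 and 11.84, a difference of 0.041 that changed sign after centring on the median. Arvcf, a catenin that binds cadherins, was at 9.55 and 9.53, and Scarf2, a scavenger receptor family member, at 10.06 and 10.04. Both differences, -0.023 and -0.018, kept their sign and were smaller than the median gap between clusters. Rtn4r, the Nogo receptor that limits axon growth, P2rx6, an ATP-gated channel subunit, and Slc7a4, of the cationic amino acid transporter family, were under the floor, with differences of -0.049, 0.037 and -0.053.

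Cldn5, the tight junction protein of endothelium, had the same value, 6.87, on both arrays. Exactly equal values were frequent among dim genes, at 26.9% of the 10108 genes under the floor. Of 12 other endothelial markers 6 were expressed, among them the receptor genes Kdr at 8.42 and 8.64 and Tek at 9.41 and 9.52, whereas the endothelial cadherin gene Cdh5, at 7.66 and 7.92, was under the floor like Cldn5. Over the list, 8 markers were higher in Adam19-/- cells and 3 lower, and the median difference was 0.17. The largest differences among the expressed ones were those of Ramp2 at 0.30, Egfl7 at 0.23, Kdr at 0.22 and Esam at -0.14, and under the floor Plvap differed by 0.33 and Pecam1 by 0.27. The list median was 8.05 on both arrays, and the part of these markers in the value of Cldn5 was not tested. For Gp1bb, which has no value of its own, the shared cluster was at 10.73 and 10.65. Of 7 measured platelet and megakaryocyte markers, Itgb3 was the only one expressed, while Gp9, a partner of Gp1bb in the same receptor, was at 7.41 and 7.36.

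In the group of mitochondrial and metabolic genes 3 of 5 were expressed. Slc25a1, which carries citrate out of mitochondria, was at 11.12 and 11.22, a difference of 0.099. Mrpl40, a protein of the mitochondrial ribosome, and Tango2, whose loss causes metabolic crises in patients, are given above with their paired neighbours. Prodh, which starts the breakdown of proline, was at 7.84 and 7.74, a difference of -0.096. Txnrd2, the mitochondrial thioredoxin reductase, was at 7.65 and 7.62. Both lay under the floor in both samples.

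All 5 genes of replication, transport and protein turnover were expressed and, on the deposited scale, higher, with a median of 0.069, and all but Cdc45 were higher under every alternative. Cdc45, a part of the replicative helicase, was at 8.98 and 9.03. Ranbp1, which assists the GTPase Ran in nuclear transport, had a signal at percentile 98.5 of all genes in Adam19+/+ and 98.7 in Adam19-/- cells. Ufd1, a cofactor of the segregase Vcp, was at 10.33 and 10.40, Zdhhc8, a palmitoyltransferase, at 10.20 and 10.27, and Snap29, a SNARE protein of membrane fusion, at 9.94 and 10.06. Of the remaining genes, Dgcr6 was at 8.93 and 8.92, and Serpind1, the liver-made heparin cofactor II, was at 5.80 and 5.81.

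By human deletion segment, the expressed genes had medians of 0.052 in A-B, with 12 of 15 higher, 0.046 in B-C, with 2 of 3 higher, and 0.12 in C-D, with 5 of 5 higher. The range within A-B, from -0.030 to 0.38, held that of C-D, from 0.026 to 0.21. With the genes under the floor included, the median of C-D was 0.060 over 8 genes and that of A-B 0.045 over 21.

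Genes that act with those of the interval were measured as lists. Their medians are to be read beside 0.038 for all expressed genes, and shares past 1.2-fold beside 3.57% higher and 0.997% lower. Of 16 expressed genes linked to Tbx1 in the outflow tract and pharynx, 11 were higher and 4 lower, 1 was equal, and their median difference stood at 0.11. Fgf10, a growth factor of the second heart field, was at 9.93 and 9.59, a difference of -0.34 and the only one of the list past 1.2-fold downward. Foxc1, a forkhead factor of outflow and arch artery development, was at 9.62 and 9.91, past 1.2-fold upward, followed by Tbx2 at 0.26 and Tbx20 at 0.24. Centring on the median of expressed genes lowers every difference by 0.056, in this list as in the others.

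The partners of Crkl and Lztr1 had a median of 0.031 over 18 expressed genes, 12 higher and 6 lower, and none passed 1.2-fold. Rit1, a RAS-family GTPase bound by Lztr1, was at 8.91 and 9.17, the adaptor Grb2 differed by 0.19, and the feedback genes Dusp6 and Spry2 by 0.16 and 0.12. The 27 expressed subunits of Mediator and its kinase module, the complex of Med15, had 21 higher, 5 lower and 1 equal gene around a median of 0.042, led by Med29 at 0.25 and Med24 at 0.22. Of 8 measured partners of Hira in histone deposition 7 were expressed, 3 of them higher and 4 lower, around a median of -0.028. Among them were the H3 and H4 chaperones Asf1a at 0.19 and Asf1b at 0.17, and Ubn1 of the Hira complex at -0.11.

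Genes of replication differed little. The 16 partners of Cdc45, among them the Mcm subunits, had 12 higher, 3 lower and 1 equal gene around a median of 0.023, from Pcna at -0.11 to Cdc6 at 0.19. Of 9 measured cell cycle markers 5 were higher and 4 lower, from -0.12 in Ccna2 and Mki67 to 0.18 in Aurka. The 8 Ran partners had a median of 0.028 and the 9 partners of Ufd1 one of 0.027. The largest differences in them were 0.090 in the importin gene Kpna2 and 0.10 in Nploc4, which forms a dimer with Ufd1.

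Of the remaining lists, 8 of 9 mitochondrial redox and proline genes were higher, with a median of 0.093 and with the peroxidase Prdx3 at 0.24 ahead of Aldh4a1 at 0.16. The 8 expressed genes around Pi4ka had a median of 0.013, with Fam126b at 0.21 and Fam126a at 0.18, both listed with the complex of the kinase. The 7 SNARE genes around Snap29 had a median of 0.038, with Vamp7 at 0.27, past 1.2-fold. The 6 expressed partners of the Nogo receptor had a median of -0.0027, with Lingo1 at -0.084 and Mag at -0.074. None of the 12 lists had more than 1 gene past 1.2-fold in either direction.

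**Figure D4:**
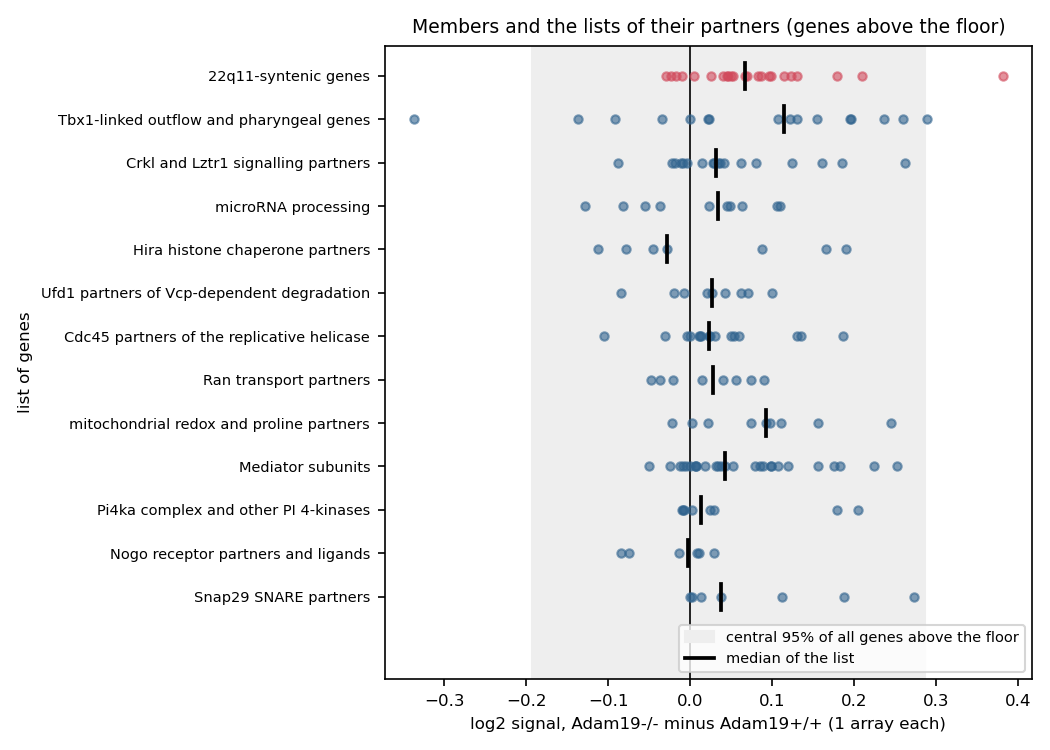
Difference in log2 signal, Adam19-/- minus Adam19+/+, for the 23 expressed genes of the interval (top row) and the expressed genes of the 12 partner lists; each point is a gene, black bars are list medians and the grey band is the central 95% of all expressed genes, from -0.19 to 0.29. Apart from Gnb1l at 0.38, Fgf10 at -0.34 and Foxc1 at 0.29, the points lie inside the band.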

How the data were processed

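The authors deposited 1 table of log2 signals for 28853 transcript clusters, with 1 column per array; neither labels nor table state their background correction, normalisation or probe summary. The log base was inferred: as log2 the highest value stands for a linear signal of 23484, as natural logarithms it would exceed the 65535 of a 16-bit scanner.

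Clusters were named through the platform annotation and, by Entrez identifier, RefSeq symbols of GRCm38.p6; 21789 had 1 symbol, 21698 of them matched, 1621 had several and 5443 none listed, and the last 2 kinds were left out. The brightest cluster stood for a gene. Values were not normalised again (Python 3.11.15, numpy 2.4.6, pandas 2.3.3, statsmodels 0.14.6, matplotlib 3.10.9). The reading of gene differences from clusters was checked on simulated data with planted differences, larger than any of the listed genes. They were planted without noise, so the check covers the reading step alone and not how precise a small difference is. The floor, promoter, pair and scaling steps were not checked in this way. With 1 array per genotype no test was run. Genome positions of genes are not given, since the build behind the values is unknown; promoter positions belong to their sequences.

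Each of the 33 listed genes is named, and in each further list up to 4 expressed genes with the largest differences. Tek, Cdh5, Plvap, Pecam1, Gp9, Acta2, Tnnt2, Mki67 and the Y-linked genes were chosen after their values were seen. Predicted genes, Riken clones and microRNAs are counted but not named. Genes, lists and roles were chosen with earlier results of these data known, and promoter features after the values were seen. The number of arrays limits how precise a value is. The alternatives varied the floor, the scaling, the cluster per gene and adding 32 to the linear signal.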

Additional observations from a re-analysis of the deposited data

How the results depend on the processing

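Under the 8 alternatives no difference of the 32 measured genes moved by as much as 0.075, the spread between clusters of 1 gene used as the yardstick in place of replicates. The largest move was 0.061. The floors change no difference, and centring on the median shifts each by -0.056, so these settings could not reach 0.075. A floor at the 75th percentile left 13 genes, 12 higher and 1 lower, where 62.6% of all genes above it were higher. Without a floor 22 were higher and 9 lower, where 51.7% of all genes were higher. With a floor at the 95th percentile of olfactory receptors 20 were higher and 9 lower, where 59.8% of all genes above it were higher. Centring on the median of expressed genes gave 12 higher and 11 lower, and centring on a trend with signal gave 7 lower. Signs changed for 9 of the 32 genes after centring on the median, for 3 after centring on the trend and for 2 after quantile normalisation. The median of the interval ran from 0.012 to 0.069, and lay between 0.017 and 0.043 above that of all genes. The cause of these shifts was not tested beyond the change of scale itself. No paired analysis was possible because there is 1 array per genotype. For the same reason no array could be left out.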

Other observations

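Between the outermost genes of the interval lie 12 further measured genes, of which 3 were expressed. Of the 32 described above 23 were, and of all genes on the array 49.3%. Ess2, a splicing-associated nuclear protein gene, had signals of 10.52 (Adam19+/+) and 10.61 (Adam19-/-), which differ by 0.092. Smpd4, a neutral sphingomyelinase gene, was at 10.17 and 10.20. The third expressed gene differed by -0.00059. Car15, a carbonic anhydrase gene, had the largest difference of the 12, at 7.28 and 6.95, a difference of -0.33, but lay under the floor on both arrays; it was chosen after its value was seen. Ccdc74a was at 7.30 and 7.49, also under the floor. Without a floor 4 of the 12 genes were higher and 8 lower, where 51.7% of all genes on the array were higher.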
